A study of Mus musculus with 6 samples.

Results

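The genes described here encode the ligands, latency proteins, receptors, extracellular inhibitors and SMAD transducers of the transforming growth factor beta (TGF-beta) and bone morphogenetic protein (BMP) pathways, with the Id genes and Tgfbi as common targets. The members were taken from a list of 48 symbols, and a gene was measured where a row of the array table carried that symbol alone. This gave 46 genes of the 14860 with such a row, each with 1 row. Bmp6 and Gdf15 had no such row and were not analysed here.

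TGF-beta ligands are secreted in a latent form that is held in the matrix, and are released to act on a complex of type I and type II receptor kinases. The receptors of the TGF-beta arm mainly phosphorylate Smad2 and Smad3, those of the BMP arm Smad1, Smad5 and Smad9, and each set acts with Smad4 in the nucleus. In skeletal muscle, signalling through Smad2 and Smad3 is known to restrain fibre growth and BMP signalling to sustain fibre mass, and in flies BMP signalling is known to control growth of the neuromuscular synapse.

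RNA came from tibialis anterior muscle, a fast muscle of the lower leg, of mice of the outbred ICR strain aged 16 weeks, for which the labels list no modified allele and no drug. Sections were stained for acetylcholinesterase (AChE), an enzyme concentrated at the synapse, and tissue at neuromuscular junctions (NMJ) and an equal area elsewhere on the same fibres (non-NMJ) was cut out by laser. Each region was measured on 3 arrays, and the labels give 9973 junctions without saying how these were spread over arrays or animals. The p-values therefore measure only the spread between these samples, which may be technical. Captured tissue holds every cell type at the site, so a higher or lower value can come from more or fewer cells of a type or from RNA per cell, and these cannot be told apart.

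Values are log2 expression values that the authors made by RMA, which corrects background, normalises arrays and summarises the probes of a gene. Array medians lay between 4.37 and 4.38 in non-NMJ and between 4.49 and 4.53 in NMJ, and the first principal component, with 63.5% of the variance, separated the regions. Differences are NMJ minus non-NMJ, tested with limma, and a row was called at a Benjamini-Hochberg adjusted p under 0.05 over all 23332 rows. The marker lists were chosen with earlier results of these data known, so their counts are not an independent check of the region labels. All 11 genes listed for nuclei beneath the synapse were higher in NMJ, with a median difference of 5.27. Of the fast fibre genes 8 of 12 were lower, with a median of -0.34. Of the lists for other cell types, 11 of 12 Schwann cell markers (all but Gfap, at 0.012) and 9 of 14 fibroblast markers were higher and 0 lower, whereas 6 of 12 endothelial markers were lower and 0 higher. The endothelial list includes the member Eng, which was not called. Mean log2 values over the Schwann list ran from 6.45 to 6.51 in NMJ and from 4.45 to 4.65 in non-NMJ, over the fibroblast list from 8.20 to 8.29 and from 7.11 to 7.28, and over the endothelial list from 6.23 to 6.32 and from 6.53 to 6.70. Of the macrophage and leukocyte list 3 of 10 were higher and 1 lower, of the satellite cell list 2 of 10 and 1, and of the adipocyte list 0 of 6 and 1. For comparison, 17.5% of rows with 1 gene symbol were called higher and 10.3% lower. For macrophages and leukocytes 1 was higher without NMJ replicate 1 or 2 or non-NMJ replicate 3, and 0 were lower without any single array. RMA values do not reach 0, so no marker could be scored as absent. The count of lower endothelial markers was 3 without non-NMJ replicate 1 and 2 without non-NMJ replicate 2 or any single NMJ array.

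Of the 46 members, 27 were called (58.7%, against 23.0% of all rows), 21 of them higher in NMJ (45.7%, against 14.4%) and 6 lower (13%, against 8.63%). The member list was chosen with earlier results of these data known, so its excess over these shares is not independent evidence. Among rows with 1 symbol the shares called were 17.5% higher and 10.3% lower, so the share of lower members was close to its background. The other shares in this paragraph are over all rows, which include 7317 rows that the annotation did not list. At least 2-fold and called were 14 members higher (30.4%, against 5.51%) and 1 lower (2.17%, against 1.53%). Every NMJ array lay above every non-NMJ array for 24 members and below for 7, together 67.4%, against 41.0% of all rows (22.8% above and 18.2% below). Each called member was among these, so a lack of overlap adds no support to a call. The median difference of the members was 0.24 and that of all rows -0.0067. Of all calls 62.5% were higher, while the share was 46.6% once arrays were quantile normalized. Centring each array on its median made it 41.7%; this lowers every difference by the same amount and brings the median of all rows to -0.15. Among the members the counts were 20 higher and 8 lower after quantile normalization and 21 and 7 after median centring. Without NMJ replicate 2 or 3 the count of lower members was 3.

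**Figure D1:**
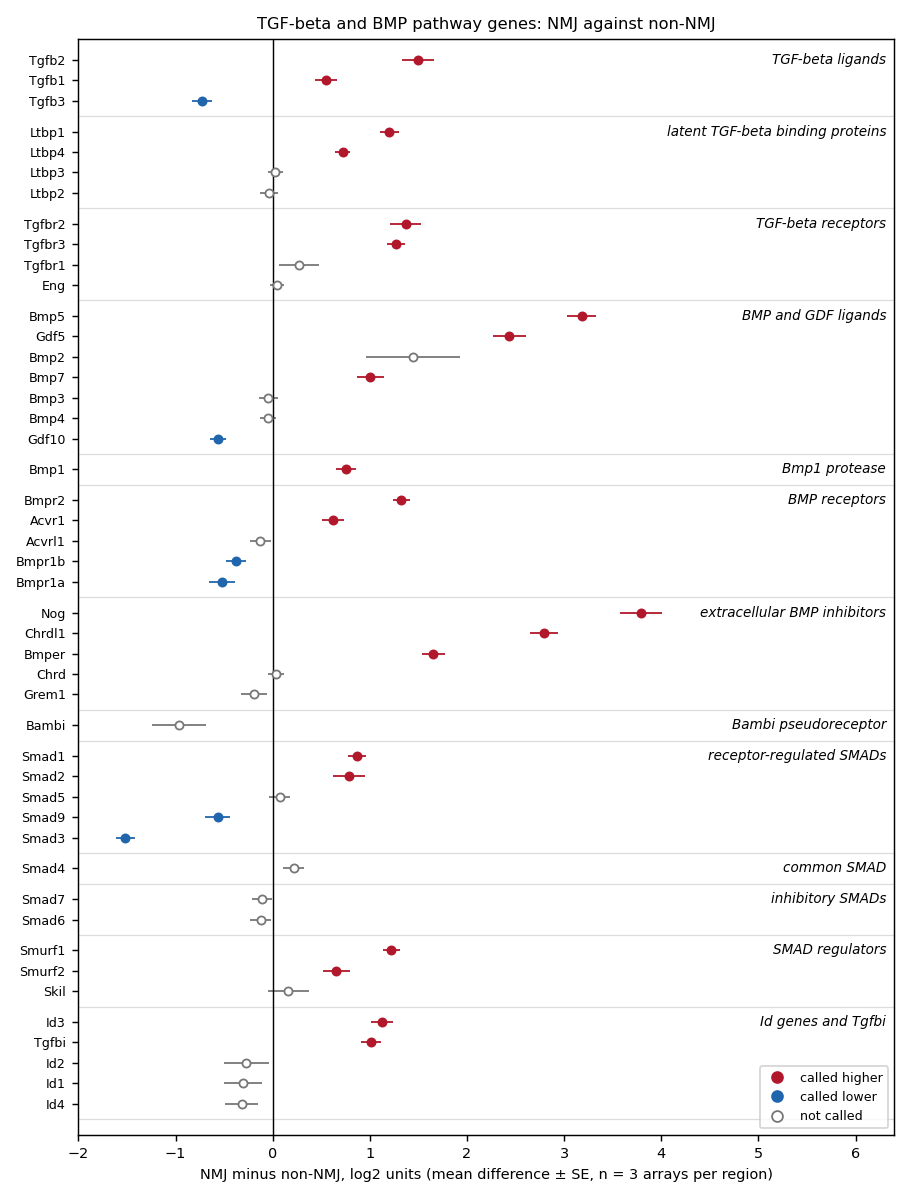
Difference between regions for each of the 46 measured members, grouped by role. The x axis is NMJ minus non-NMJ in log2 units, points are mean differences with SE bars over 3 arrays per region, red and blue points were called and open points were not. Nog (3.79), Bmp5 (3.18), Chrdl1 (2.79) and Gdf5 (2.44) lie farthest to the right and Smad3 (-1.52) farthest to the left.

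Upstream windows were matched by gene for 30 of the 46 measured members, as the 250 bases before an annotated start in RefSeq on GRCm38.p6, and 4 windows are shown, 2 for the size of the gene's difference and 2 as examples of a motif match. The motifs searched on both strands were CCGGAA (reverse complement TTCCGG), the core of the N-box bound by ETS factors at synaptic genes, and GGCGCC, a GC-rich element known from BMP-responsive promoters, which is its own reverse complement. The motifs can share 2 letters where they abut. Capitals mark a match. Bmp5 had the largest difference among members with a window, Bmpr2 and Ltbp1 were higher members holding GGCGCC and CCGGAA respectively, and Smad3 had the largest decrease. The windows lie at chr9:75775115-75775364 (plus strand, Bmp5), chr1:59764029-59764278 (plus strand, Bmpr2), chr17:75005279-75005528 (plus strand, Ltbp1, which has 2 windows) and chr9:63757995-63758244 (minus strand, Smad3), each ending directly before an annotated transcript start.
Bmp5: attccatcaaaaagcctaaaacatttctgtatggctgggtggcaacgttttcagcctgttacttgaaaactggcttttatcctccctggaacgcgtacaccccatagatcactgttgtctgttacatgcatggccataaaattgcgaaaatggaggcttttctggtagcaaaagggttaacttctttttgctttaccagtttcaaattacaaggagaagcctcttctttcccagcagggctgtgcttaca
Bmpr2: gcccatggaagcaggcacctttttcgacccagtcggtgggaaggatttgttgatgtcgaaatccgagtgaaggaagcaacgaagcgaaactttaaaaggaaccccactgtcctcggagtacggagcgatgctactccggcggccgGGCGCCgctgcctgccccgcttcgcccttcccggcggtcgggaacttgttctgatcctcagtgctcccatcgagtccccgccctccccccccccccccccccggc
Ltbp1: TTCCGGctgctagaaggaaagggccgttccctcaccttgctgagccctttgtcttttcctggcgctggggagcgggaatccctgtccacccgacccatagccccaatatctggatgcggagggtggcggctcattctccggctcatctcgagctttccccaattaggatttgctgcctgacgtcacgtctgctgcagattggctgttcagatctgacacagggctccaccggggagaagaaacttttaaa
Smad3: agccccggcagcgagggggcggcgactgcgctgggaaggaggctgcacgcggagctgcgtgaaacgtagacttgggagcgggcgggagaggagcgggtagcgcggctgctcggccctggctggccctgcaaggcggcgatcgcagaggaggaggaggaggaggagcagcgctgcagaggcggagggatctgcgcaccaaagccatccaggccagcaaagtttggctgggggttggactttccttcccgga
CCGGAA was present in 4 of the 30 members with a window and in 13.6% of all 27025 genes with one. GGCGCC was present in 12 of the 30 and in 10.8% of all genes. By call, GGCGCC was held by 4 of 14 higher, 2 of 5 lower and 6 of 11 uncalled members. The members' windows were richer in G and C (median 64.2%) than all windows (median 52.4%), and the Bmp5 window, at 42.8%, held neither motif.

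The extracellular inhibitors of BMP held the largest difference among the members. Nog, which encodes noggin, a secreted protein that binds BMPs and blocks their receptor sites, was 13.9-fold higher in NMJ, and Chrdl1 and Bmper were 6.94-fold and 3.14-fold higher. Of the 5 measured inhibitors, 3 rose and 0 fell, with a median difference of 1.65, against 17.5% higher and 10.3% lower among rows with 1 symbol.

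Nog had values of 7.4, 7.48 and 8.06 in NMJ tissue against 4.06, 3.90 and 3.59 elsewhere. NMJ replicate 3 was the highest of the 6, and the regions lay 3.79 ± 0.21 (SE, n = 3 per region) apart, with a limma adjusted p of 1.48e-04. Chrdl1, a chordin-like BMP antagonist, had 6.64, 6.62 and 6.36 in NMJ against 3.98, 3.55 and 3.71 in non-NMJ. The regions lay 2.79 ± 0.14 (SE) apart, wider than the spread within either. Bmper, a secreted modulator that binds BMPs and can restrain or promote their action, had 6.62, 6.44 and 6.80 against 4.97, 4.89 and 5.05. The NMJ arrays lay above the non-NMJ arrays for all 3 genes, as for every member called higher. The limma adjusted p-values were 1.11e-04 (Chrdl1) and 3.54e-04 (Bmper).

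Chrd, which encodes chordin, stood at 4.26 to 4.38 in NMJ and 4.24 to 4.31 in non-NMJ, a difference of 0.036 (95% confidence interval -0.16 to 0.23). Grem1, which encodes the antagonist gremlin, stood at 2.50 to 2.79 and 2.66 to 3.0, with a difference of -0.19 (-0.52 to 0.13). Neither was called, and the level of these rows over background is unknown. Bambi, a membrane pseudoreceptor that lacks a kinase and dampens signalling, was lower on all 3 NMJ arrays (3.76, 3.55 and 4.24) than on the non-NMJ arrays (4.35, 5.26 and 4.85). The NMJ mean of Bambi (3.85) lay below the array medians, and its level over background there is unknown. Its difference of -0.97 ± 0.28 (SE) missed the threshold (limma adjusted p = 0.0546). It passed in 7 of 14 alternative fits, with adjusted p-values over all 14 from 0.0228 to 0.157. Some of these passes left the difference at -0.97 and changed only the rows tested or the variance prior.

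Among the BMP and growth differentiation factor (GDF) ligands, Bmp5 and Gdf5 were the members with the largest differences. Of 7 measured ligands 3 rose and 1 fell, with a median difference of 1.00, against 17.5% higher and 10.3% lower among rows with 1 symbol. Bmp5, a BMP related to Bmp6 and Bmp7, was 9.06-fold higher, and Gdf5, a ligand known from joint formation and induced in denervated muscle, was 5.41-fold higher. Bmp7 was 2.01-fold higher.

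Bmp5 had 8.36, 8.54 and 8.30 in NMJ against 4.98, 5.48 and 5.21 in non-NMJ. The gap between the lowest NMJ and the highest non-NMJ array was far wider than the spread within either region, and the difference was 3.18 ± 0.15 (SE, n = 3 per region; limma adjusted p = 7.63e-05). Gdf5 had 6.15, 6.37 and 6.12 against 3.82, 4.05 and 3.46, a difference of 2.44 ± 0.17 (SE). Bmp7 had 5.26, 5.20 and 5.09 against 4.12, 4.43 and 3.98, with a limma adjusted p of 0.00376. Like every member called higher, the 3 ligands were higher on every NMJ array than on any non-NMJ array. The non-NMJ means of Nog (3.85), Chrdl1 (3.75), Gdf5 (3.78), Bmp7 (4.18) and Bmp2 (3.96) were below the array medians, and their folds are only those of the RMA values.

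Bmp2, the BMP ligand best known from bone induction, had the widest spread among the members. Its values were 5.54, 5.67 and 4.99 in NMJ and 4.17, 4.80 and 2.91 in non-NMJ. The regions did not overlap, but the SD of 0.961 among non-NMJ arrays left a difference of 1.44 ± 0.48 (SE) uncalled (limma adjusted p = 0.0856). Without non-NMJ replicate 3, the lowest array, the difference was 0.915, and over all omissions it ran from 0.915 to 1.86. It passed in 4 of 15 alternative fits, with adjusted p-values over all 15 from 0.0348 to 0.214. Some of these passes left the difference at 1.44 and changed only the rows tested or the model. Bmp4, a ligand close to Bmp2, stood at 4.22 to 4.33 in NMJ and 4.29 to 4.37 in non-NMJ, a difference of -0.049 (95% confidence interval -0.24 to 0.15). The mean of Bmp4 lay below the array medians in each region, and its level over background is unknown. Bmp3, a family member known to oppose other BMPs, had a difference of -0.047, with overlapping regions. Gdf10, also called Bmp3b, was the ligand that fell, at 4.90, 5.00 and 4.99 against 5.59, 5.55 and 5.44. Its difference was -0.56 ± 0.09 (SE; limma adjusted p = 0.00583), and its arrays did not overlap.

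Bmp1 shares its name with the ligands but encodes a metalloprotease that trims procollagens, cleaves chordin and helps to free latent TGF-beta. It was 1.69-fold higher, at 6.22, 6.17 and 6.16 in NMJ against 5.53, 5.50 and 5.24 in non-NMJ (limma adjusted p = 0.00412).

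**Figure D2:**
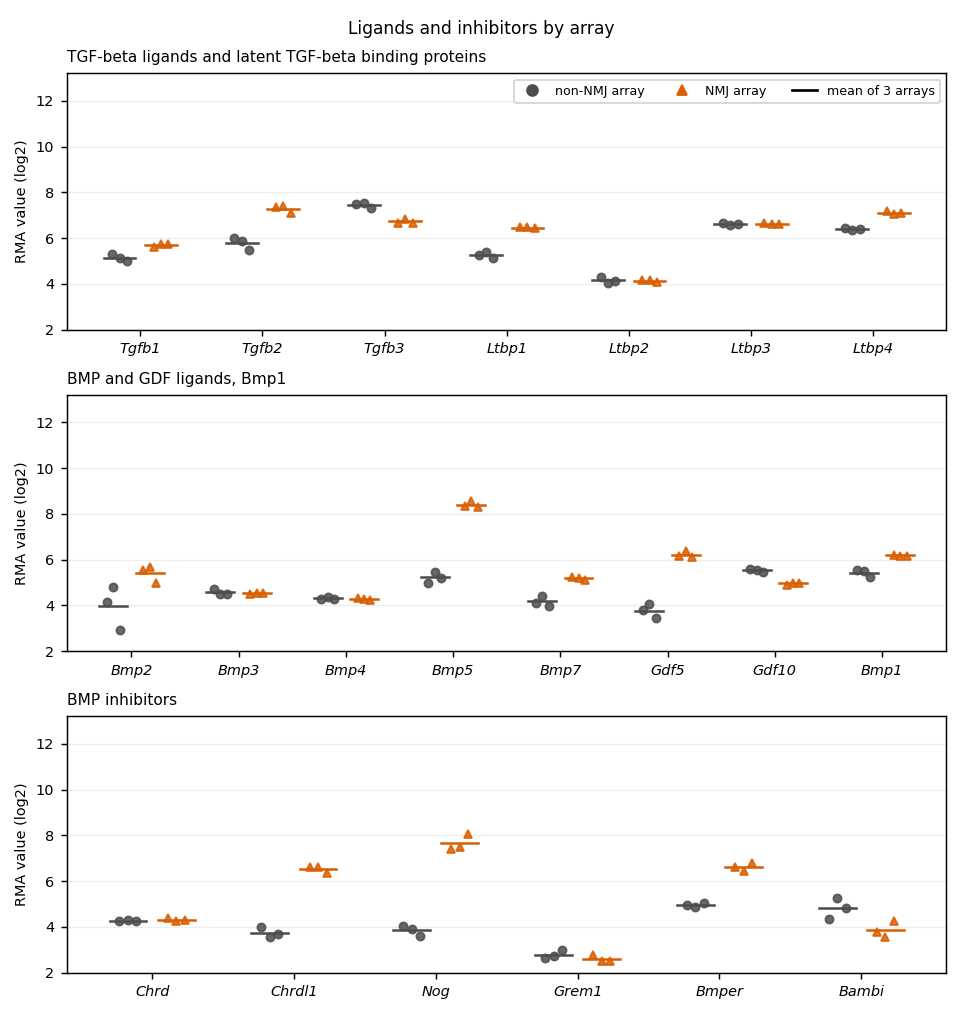
RMA values (log2, y axis) of the ligand, latency protein and inhibitor genes on each array. Grey circles are the 3 non-NMJ arrays, orange triangles the 3 NMJ arrays and bars their means, and heights are compared only within a gene. Nog, Chrdl1, Bmp5 and Gdf5 separate widely, Bmp2 spreads from 2.91 to 4.80 in non-NMJ, and Chrd and Bmp4 overlap.

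The BMP receptors moved in both directions. Of 5 measured receptors 2 rose, 2 fell and 1 was not called, against 17.5% higher and 10.3% lower among rows with 1 symbol. Bmpr2, a type II receptor of BMPs, was 2.50-fold higher in NMJ, whereas the type I receptors Bmpr1a and Bmpr1b were 1.44-fold and 1.30-fold lower.

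Bmpr2 had 10.58, 10.60 and 10.54 in NMJ against 9.32, 9.29 and 9.14 in non-NMJ, a difference of 1.32 ± 0.09 (SE; limma adjusted p = 2.48e-04). Acvr1, a type I receptor that binds BMPs and activin, had 7.44, 7.30 and 7.20 against 6.78, 6.78 and 6.53, and was 1.54-fold higher. Bmpr1a had 7.66, 7.73 and 7.49 against 8.27, 8.26 and 7.92. Its NMJ arrays all lay below its non-NMJ arrays, as did those of Bmpr1b, at 4.88, 4.62 and 4.75 against 5.23, 5.08 and 5.09. The 2 decreases were close to the threshold, with limma adjusted p-values of 0.0338 (Bmpr1a) and 0.045 (Bmpr1b). Bmpr1a did not pass without non-NMJ replicate 1 or 2 or any single NMJ array (adjusted p = 0.0694 to 0.101), and Bmpr1b lost its call whichever array was omitted (0.0636 to 0.139) and with array weights on all 6 arrays (0.0689). Acvr1 lost its call without NMJ replicate 1 (0.0508). Acvrl1, a type I receptor of endothelium, had a difference of -0.13 (95% confidence interval -0.40 to 0.15) with overlapping regions, and after quantile normalization it passed at -0.39 (adjusted p = 0.0201). The lower endothelial markers stood beside this value, and their part in it was not tested.

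In the TGF-beta arm 6 of 11 genes rose and 1 fell, with a median difference of 0.55. Among rows with 1 symbol 17.5% rose and 10.3% fell. The ligand genes diverged: Tgfb2 was 2.82-fold higher and Tgfb1 1.46-fold higher in NMJ, whereas Tgfb3 was 1.66-fold lower. All 3 encode secreted ligands of the same receptors.

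Tgfb2 had 7.35, 7.39 and 7.09 in NMJ against 6.01, 5.87 and 5.47 in non-NMJ, a difference of 1.49 ± 0.17 (SE; limma adjusted p = 0.00186). Tgfb1, the ligand most studied in fibrosis, had 5.59, 5.74 and 5.74 against 5.30, 5.13 and 4.99. Tgfb3 went the other way, at 6.68, 6.85 and 6.65 against 7.5, 7.55 and 7.31, a difference of -0.73 ± 0.11 (SE; limma adjusted p = 0.00509). As with every called member, none of the 3 genes overlapped between regions. The call of Tgfb1 (limma adjusted p = 0.0166) was the weakest of the 3: it did not pass after quantile normalization (difference 0.32, adjusted p = 0.0771), with the replicate number as a block (0.0548), or without non-NMJ replicate 2 (0.0501), NMJ replicate 2 (0.0649) or NMJ replicate 3 (0.0589).

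Latent TGF-beta binding proteins tether the latent ligand to the matrix, and 2 of 4 rose, against 17.5% of rows with 1 symbol. Ltbp1 had 6.49, 6.47 and 6.42 in NMJ against 5.26, 5.39 and 5.12 in non-NMJ, a 2.30-fold difference (limma adjusted p = 5.53e-04). Ltbp4, a form that also aids elastic fibre assembly and is known as a modifier of muscular dystrophy in mice, had 7.18, 7.06 and 7.10 against 6.42, 6.37 and 6.39, and was 1.65-fold higher. Ltbp2, which does not bind latent TGF-beta, and Ltbp3 had differences of -0.038 (95% confidence interval -0.27 to 0.20) and 0.026 (-0.16 to 0.21), and their regions overlapped. The mean of Ltbp2 lay below the array medians in each region, and its level over background is unknown.

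The receptor genes Tgfbr2 and Tgfbr3 rose, and Tgfbr1 and Eng were not called. Tgfbr2, the type II receptor that binds the ligand, had 6.91, 7.12 and 6.90 in NMJ against 5.84, 5.68 and 5.30 in non-NMJ, a difference of 1.37 ± 0.16 (SE; limma adjusted p = 0.0021). Tgfbr3, the coreceptor betaglycan that presents TGF-beta to the type II receptor, had 7.41, 7.28 and 7.18 against 6.04, 6.05 and 5.97, and was 2.42-fold higher. The type I receptor Tgfbr1 stood at 6.69 to 7.11 and 6.37 to 7.0, a difference of 0.27 (95% confidence interval -0.24 to 0.77). Eng, which encodes the endothelial coreceptor endoglin, stood at 8.08 to 8.10 and 8.02 to 8.07. Its arrays did not overlap, but the difference of 0.047 (-0.13 to 0.23) was smaller than its SE of 0.074 and turned to -0.033 after quantile normalization and -0.093 after median centring. The higher Schwann cell and fibroblast markers stood beside these increases, as beside those of the BMP ligands, inhibitors and SMADs, and their part in them was not tested.

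Among the SMADs, the pair that the TGF-beta receptors phosphorylate moved in opposite directions. Smad3 was 2.86-fold lower in NMJ, the only member at least 2-fold lower, and Smad2 was 1.73-fold higher. Of the SMADs of the BMP arm, Smad1 was 1.82-fold higher, Smad9 was 1.48-fold lower and Smad5 was not called.

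Smad3 had 6.70, 6.71 and 6.56 in NMJ against 8.27, 8.07 and 8.18 in non-NMJ, a difference of -1.52 ± 0.10 (SE, n = 3 per region; limma adjusted p = 2.18e-04). Its call and its direction held in all 15 alternative fits, from -1.68 to -1.47, although several of these fits used the same values and left the difference at -1.52. Smad2 had 6.63, 6.77 and 6.46 against 6.01, 5.96 and 5.52, and lost its call without NMJ replicate 1 (adjusted p = 0.0651) or 2 (0.0665). Smad1 had 6.89, 6.85 and 6.80 against 6.10, 5.97 and 5.88, with a limma adjusted p of 0.00154. Smad9 had 3.85, 3.50 and 3.78 against 4.23, 4.17 and 4.43, and its mean lay below the array medians in each region. Its call (limma adjusted p = 0.0248) ended without non-NMJ replicate 1 (0.0581), non-NMJ replicate 3 (0.0638), NMJ replicate 2 (0.0668) or NMJ replicate 3 (0.0583).

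The common partner Smad4 and the inhibitory SMADs were not called. Smad4 stood at 7.74 to 7.90 in NMJ and 7.44 to 7.72 in non-NMJ, without overlap, a difference of 0.22 (95% confidence interval -0.051 to 0.48). Smad6 and Smad7, which block receptor signalling and are themselves induced by it, had differences of -0.12 (-0.39 to 0.14) and -0.11 (-0.37 to 0.14), with overlapping regions. Smad5 had a difference of 0.073 (-0.19 to 0.34), which turned to -0.16 after quantile normalization and -0.067 after median centring.

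Of the genes that regulate SMADs, the ubiquitin ligase genes Smurf1 and Smurf2 rose. Smurf1, which marks BMP SMADs and receptors for degradation, had 6.57, 6.62 and 6.42 in NMJ against 5.28, 5.32 and 5.33 in non-NMJ, a difference of 1.22 ± 0.09 (SE; limma adjusted p = 3.75e-04). Smurf2 had 8.32, 8.40 and 8.10 against 7.66, 7.78 and 7.42, and lost its call without NMJ replicate 1 (adjusted p = 0.0687) or 2 (0.0656). Skil, which encodes the SMAD corepressor SnoN, had a difference of 0.16 (95% confidence interval -0.36 to 0.68) that turned to -0.082 after quantile normalization.

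The Id genes encode helix-loop-helix proteins that lack a DNA-binding region and are induced by BMP in many cells. Of the 4 Id genes only Id3 was called, and 17.5% of rows with 1 symbol were called higher. With 4 genes, this count cannot be set apart from that share. Id3 rose, at 7.71, 7.64 and 7.58 in NMJ against 6.33, 6.69 and 6.53 in non-NMJ, a difference of 1.13 ± 0.11 (SE; limma adjusted p = 0.00132). Id1, Id2 and Id4 had differences of -0.30 (95% confidence interval -0.78 to 0.17), -0.27 (-0.84 to 0.30) and -0.32 (-0.74 to 0.094). The regions overlapped for each of these 3 genes. Tgfbi, a secreted matrix protein named for its induction by TGF-beta, had 7.24, 7.35 and 7.14 against 6.37, 6.17 and 6.15, and was 2.02-fold higher (limma adjusted p = 0.0014).

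**Figure D3:**
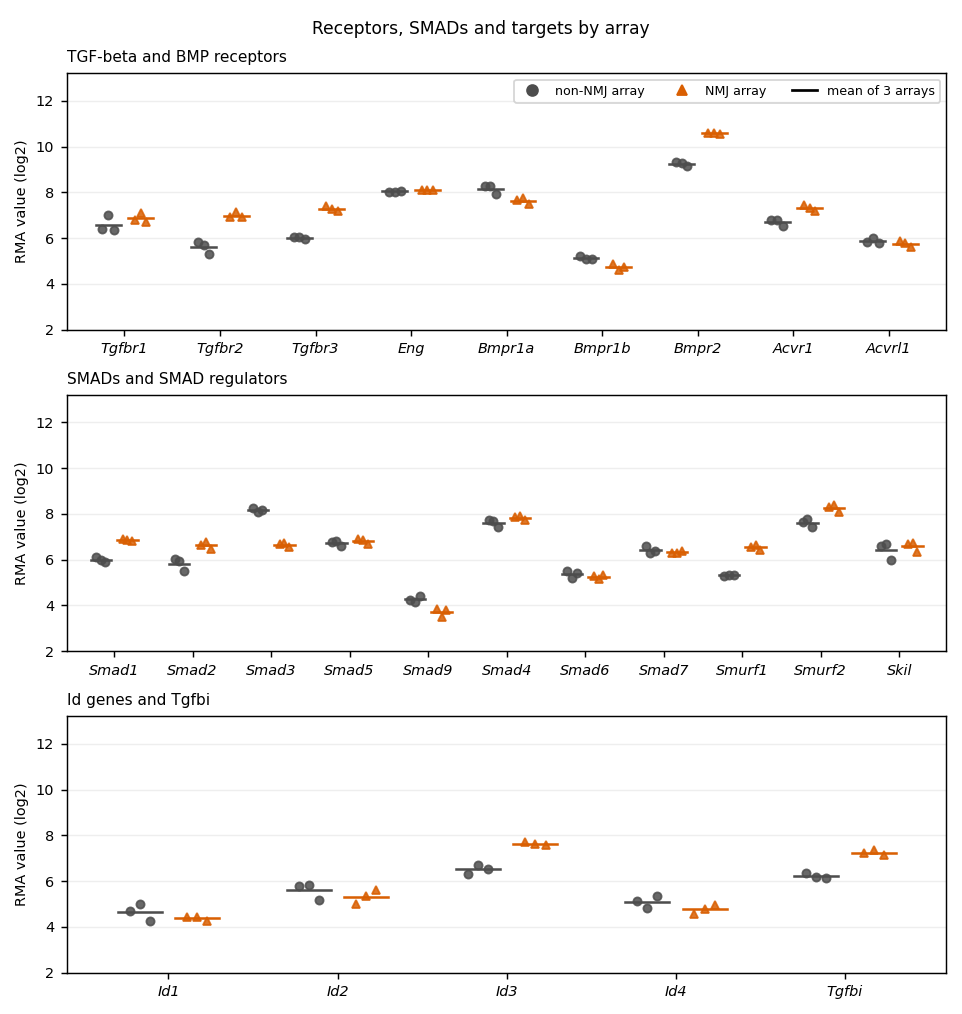
RMA values (log2, y axis) of the receptor, SMAD, SMAD regulator and target genes on each array, with grey circles for the 3 non-NMJ arrays, orange triangles for the 3 NMJ arrays and bars for means. Heights are compared only within a gene. Smad3 drops from between 8.07 and 8.27 to between 6.56 and 6.71, Bmpr2 rises to between 10.54 and 10.60, and Id3 separates while Id1, Id2 and Id4 overlap.

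Other genes of the pathways were taken from 3 lists of 62 genes, of which 50 were measured. Of these 9 were higher, 7 lower and 34 not called, with a median difference of -0.056. Over all rows 14.4% were called higher and 8.63% lower, and over rows with 1 symbol 17.5% and 10.3%, so the count of higher genes was near its background. The 12 further ligands held 0 calls with limma and 1 gene at an unadjusted p under 0.05. That gene was Gdf6, with a difference of -0.45 (limma adjusted p = 0.0893), and 1 and 2 ligands were called lower after quantile normalization and median centring. Mean log2 values over these ligands ran from 3.64 to 3.84 in NMJ and from 3.77 to 3.89 in non-NMJ, below the array medians. Bmp8a and Gdf7 had both means above the medians. The level of these rows over background is unknown, so a lack of calls does not show equal expression.

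Among 19 extracellular regulators 4 rose and 2 fell, against 17.5% and 10.3% of rows with 1 symbol. Htra1, a secreted serine protease reported to cleave TGF-beta family proteins, was 11.3-fold higher, at 8.56, 8.64 and 8.36 in NMJ against 4.92, 5.13 and 5.03 in non-NMJ. Thbs1, a matricellular protein that can activate latent TGF-beta, Nrros, which holds latent TGF-beta on macrophages and microglia, and Itgav, the integrin chain that takes part in its release, had differences of 2.43 ± 0.10, 2.20 ± 0.12 and 2.09 ± 0.16 (SE). Hjv, the BMP coreceptor hemojuvelin of muscle and liver, had 8.87, 8.74 and 8.74 against 10.29, 10.21 and 10.27, and fell by 1.47 on the log2 scale. Itgb6, the integrin chain that pairs with that of Itgav to release TGF-beta in epithelia, fell by 1.11. None of these 6 genes overlapped between regions, as was so for 41.0% of all rows. They were picked by their calls, so the lack of overlap adds no support. Their limma adjusted p-values ran from 2.08e-05 to 0.00221. The lower count was 5 after quantile normalization and after median centring.

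Among 19 intracellular regulators 5 rose and 5 fell, against the same shares of 17.5% and 10.3%. The transcriptional corepressor genes Tgif1 and Ski rose by 2.42 ± 0.17 and 1.44 ± 0.08 (SE), and Pmepa1, a membrane adaptor that sequesters SMADs, rose by 0.77. Snx6 and Tab1 had differences of 1.01 and 0.57. The kinase gene Map3k7, which encodes TAK1, and Tab2, which encodes its adaptor, fell by 0.51 and 0.66, while Hipk2, Fkbp1a and Stub1 had differences of -0.40, -0.40 and -0.29. Without NMJ replicate 1 or 2 the higher count was 3. The lower count was 2 and 3 without non-NMJ replicates 1 and 2, and 1, 2 and 1 without NMJ replicates 1, 2 and 3, and 8 after median centring.

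**Figure D4:**
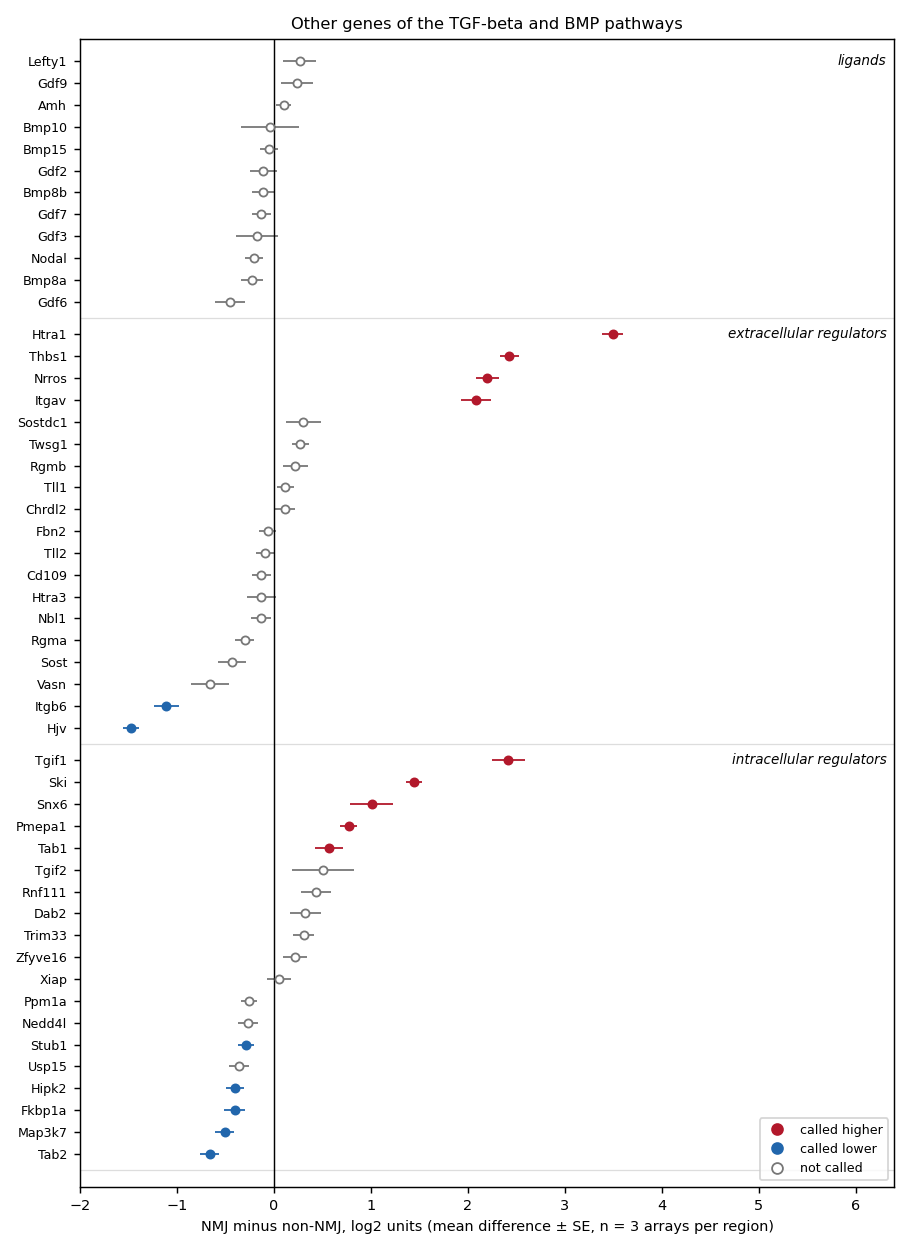
Difference between regions for the 50 other measured genes of the pathways, by list. The x axis is NMJ minus non-NMJ in log2 units, points are mean differences with SE bars over 3 arrays per region, red and blue points were called and open points were not. Htra1 (3.49) and Thbs1 (2.43) lie farthest to the right, Hjv (-1.47) farthest to the left, and all 12 further ligands are open points.

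Among genes listed as targets of TGF-beta 11 of 17 rose and 2 fell, and among those listed as targets of BMP 3 of 18 rose and 1 fell, with median differences of 0.70 and -0.18. Against the same background of 17.5% higher and 10.3% lower among rows with 1 symbol, the BMP target counts were no larger than those of genes at large. Periostin (Postn), a matrix protein, rose by 5.00 ± 0.18 (SE), the collagen genes Col1a2 and Col1a1 by 1.80 and 1.14, and Klf10, an early TGF-beta response factor, by 1.70. Acta2 and Tagln, smooth muscle genes, fell by 0.84 and 0.76. Tgif1 and Pmepa1 are on the TGF-beta list as well, and were already counted above among the higher intracellular regulators. Skil and Ltbp2, not called, are members described above. The collagen genes Col1a1, Col1a2 and Col3a1 are also in the fibroblast list, and Acta2 and Tagln in the mural cell list, of which 5 of 10 markers fell and 1 rose; the part of these cell types was not tested. On the BMP list the calls were Nog and Id3, given above, Tmem100, at 0.81, and the transcription factor gene Atoh8, which fell by 0.54. Of that list 8 genes are members described above. Atoh8 was the single lower call, and the lower count was 0 without NMJ replicate 1 or 2, 2 without non-NMJ replicate 1 and 5 after median centring.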

How the data were processed

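The authors deposited log2 expression values per probe set row for 6 mouse exon arrays, made by RMA, and per the submitters' processing notes Affymetrix Expression Console and Transcriptome Analysis Console were used. Per the labels' protocols, cDNA was amplified from 10 ng of total RNA for each sample. Amplification and probe summary can compress differences, and precision is limited by having 3 arrays per region. Of 23332 rows, 14996 had 1 gene symbol in the platform annotation, 1019 had several and 7317 were not listed. Symbols were updated by gene ID to RefSeq, where all 46 measured members matched.

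The log2 values were used as deposited and a linear model was fitted to all rows by lmFit and eBayes of limma 3.58.1 (R 4.3.3), without a block, and p-values were adjusted by Benjamini-Hochberg over all rows. The code was tested on simulated data. Replicate numbers were not used as pairs in the main fit, because the labels do not tie them to an animal. Deviations of same-numbered arrays correlated positively but weakly (0.0468, 0.0355 and 0.184), so a pairing cannot be settled from them. A fit with the replicate number as a block is given below. Called members, and those with the largest difference in each role, were given array by array. From other lists up to 4 genes with the smallest p were named, and further called genes where 5 or fewer were called, these being chosen after their values were seen. The members and all lists were chosen with earlier results of these data known. Alternatives were the replicate block, quantile normalization, median centring, filters on the dimmest 25% and 50% of rows, rows with 1 symbol, an intensity trend with a robust prior, array weights, the mean of a gene's rows, stricter thresholds and omission of each array.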

Additional observations from a re-analysis of the deposited data

How the results depend on the processing

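Of the 27 called members, 20 kept their call and direction in every alternative fit that gave a value, and the 7 that lost it in some were Tgfb1, Bmpr1a, Bmpr1b, Acvr1, Smad2, Smad9 and Smurf2. Each measured member had 1 row, so the mean of a gene's rows refitted the same values. The row filters also left each difference unchanged, so these fits are weak checks of a call. With 1 array omitted, 18 to 21 members were called higher and 3 to 4 lower. At an adjusted p under 0.01, 3 members were lower, and 1 was called and at least 2-fold lower. Over all rows, 1891 were higher and 885 lower at an adjusted p under 0.01, and 1285 and 356 at 2-fold or more. With 1 array omitted, which leaves fewer samples, 2220 to 2879 rows were higher and 1133 to 1888 lower. Quantile normalization gave 3294 lower rows and median centring 3690, and these move the median of all rows from -0.0067 to -0.065 and -0.15. Differences near 0 turned sign under both: Ltbp3 to -0.21 and -0.11, Eng to -0.033 and -0.093, Chrd to -0.077 and -0.10, and Smad5 to -0.16 and -0.067. Skil turned to -0.082 under quantile normalization. With 1 array omitted, Ltbp2 ran from -0.093 to 0.030, Bmp3 from -0.10 to 0.030, Skil from -0.054 to 0.29 and Smad5 from -0.0020 to 0.14. Bmpr1b was -0.58 after quantile normalization. None of these members except Bmpr1b was called, and the cause was not tested.

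Without non-NMJ replicate 1 or 2 or any single NMJ array, 1 gene of the BMP arm was called lower instead of 3. Without NMJ replicate 1 or 2, 2 of the SMADs and regulators were called higher instead of 4, and without non-NMJ replicate 1 or 3 or NMJ replicate 2 or 3, 1 was called lower instead of 2. The filters on dim rows removed Grem1 (25%) and Ltbp2, Bmp4, Chrd, Grem1, Bambi and Smad9 (50%), which have no value there. The deviations of same-numbered arrays correlated at 0.0468, 0.0355 and 0.184, and 4 of 6 arrays correlated best with their own number. With the replicate number as a block, 3209 rows were called higher and 1855 lower, and 21 members higher and 6 lower. Tgfb1 then missed the threshold (limma adjusted p = 0.0548) and Bmp2 passed it (0.0348). Signal over background is not known from these values, which limits members near or below the array medians.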

Other observations

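The nearest protein-coding genes in RefSeq on either side of the 6 members with the largest differences were looked up. This gave 12 neighbours, of which 8 were measured, and non-coding genes were left out. Scg3, which encodes secretogranin III, a protein of secretory granules, lies beside Bmp5 and was higher in NMJ by 1.25 ± 0.14 (SE, n = 3 per region; limma adjusted p = 0.00169). The other 7 measured neighbours were not called. Hmgcll1, on the other side of Bmp5, had a difference of 0.27 (limma adjusted p = 0.0568). Uqcc1 and Cep250, beside Gdf5, had differences of -0.35 and 0.32, and Bbs9, beside Bmper, had one of 0.37. Pak3, beside Chrdl1, had a difference of 0.017. Smad3, which fell by 1.52 on the log2 scale, lies between Aagab and the inhibitory SMAD gene Smad6, which had differences of 0.028 and -0.12.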
